A study of Mus musculus with 12 samples.

Results

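Kupffer cells are the resident macrophages of the liver, and 9 genes that mark them or that they share with other macrophages were followed here: Clec4f, Vsig4, Timd4, Cd5l, Marco, Folr2, Adgre1, Csf1r and Cd163. They were taken by gene name from the 21936 mouse genes of the expression table, and each name stood on 1 entry. Liver RNA of C57BL/6 mice (C57BL/6J in the study's supplement) was compared between 3 groups of 3 libraries. Carbon tetrachloride (CCl4), a toxin activated in hepatocytes, had been given to the mice of all 3 groups at 1 mL/kg by intraperitoneal injection, 2 times a week for 8 weeks. The mice were male and 6 weeks old on arrival. LFG, the liver fibrosis group, was sacrificed at the end of the CCl4 course. REG, the regression group, was then injected with 200 µL of PBS by the tail vein, 2 times a week for 4 weeks. The hADMSCs-Exo group received 250 µg of ADMSCs-Exo, measured as protein, in 200 µL of PBS on the same schedule. ADMSCs-Exo are exosomes, small vesicles shed in culture by human adipose mesenchymal stem cells. The columns headed MSC_E in the table were taken to be this group, since the cell-injected samples are titled MSC and these Exo, but the sources used here do not spell the heading out, and every value of hADMSCs-Exo rests on that reading. The group injected with the cells themselves was not analysed here. The libraries analysed here include no group without CCl4, so levels in an uninjured liver are not given.

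Kupffer cells sit inside the sinusoids, where they take up bacteria, dying cells and old erythrocytes from the blood. Their identity is kept by signals from stellate cells, sinusoidal endothelial cells and hepatocytes. When resident cells are lost during injury, monocytes enter the liver and can take on the same identity over time, with Timd4 known as one of the last markers to be acquired. CLEC4F is a C-type lectin found in rodents on Kupffer cells and hardly on other macrophages, and TIMD4 binds phosphatidylserine on dying cells. VSIG4 is a complement receptor that captures particles coated with C3 fragments. MARCO is a class A scavenger receptor, CD163 takes up haptoglobin-haemoglobin complexes, and CD5L is a secreted protein that limits macrophage death. FOLR2 binds folate, CSF1R is the receptor for the growth factors CSF1 and IL-34, and Adgre1 encodes F4/80, the classical marker of mouse macrophages. The last pair is shared with macrophages that derive from recruited monocytes.

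The promoters of the members are shown because genes of macrophages are commonly bound near their starts by the ETS factor PU.1. All positions are on GRCm38, and the sequences are RefSeq's for GRCm38.p6, from 250 bases before to 50 bases after the start that RefSeq gives. For Clec4f that start lies inside the gene as the expression table places it, so its window begins before the table's start and runs further into the gene. The table of promoters held 7 of the 9 members in 8 entries, Folr2 having a pair of starts. The hexamer GGAAGT, an ETS core, was searched on both strands (reverse complement ACTTCC). It occurred in 4 of the 7 members (Clec4f, Vsig4, Timd4 and Folr2) and in 23.8% of the 32851 mouse promoters of this length, and its matches are in capitals below. Clec4f (chr6:83656067-83656366, minus strand) and Timd4 (chr11:46810549-46810848, plus strand) each held 1 match, starting 33 and 72 bases before the RefSeq start. Vsig4 (chrX:96293389-96293688, minus strand) held 2, of which one starts 63 bases before the RefSeq start and the other, on the opposite strand, just after it. Cd163 (chr6:124304401-124304700, plus strand) held none in this window. These 4 are printed because, as given further on, LFG replicate 3 was much further below the other LFG libraries for Vsig4 than for Clec4f and Timd4, and Cd163 was lowest in REG.
Clec4f promoter: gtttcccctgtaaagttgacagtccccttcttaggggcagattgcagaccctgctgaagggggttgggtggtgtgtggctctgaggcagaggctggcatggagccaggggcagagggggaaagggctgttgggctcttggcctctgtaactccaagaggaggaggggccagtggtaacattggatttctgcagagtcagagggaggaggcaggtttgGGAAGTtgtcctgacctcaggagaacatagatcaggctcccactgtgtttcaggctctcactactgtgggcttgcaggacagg
Timd4 promoter: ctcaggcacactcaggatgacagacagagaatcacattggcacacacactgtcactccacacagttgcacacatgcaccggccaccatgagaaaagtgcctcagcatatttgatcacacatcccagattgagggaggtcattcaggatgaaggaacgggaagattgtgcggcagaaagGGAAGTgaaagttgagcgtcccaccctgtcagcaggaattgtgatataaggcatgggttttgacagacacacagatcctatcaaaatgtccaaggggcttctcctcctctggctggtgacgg
Vsig4 promoter: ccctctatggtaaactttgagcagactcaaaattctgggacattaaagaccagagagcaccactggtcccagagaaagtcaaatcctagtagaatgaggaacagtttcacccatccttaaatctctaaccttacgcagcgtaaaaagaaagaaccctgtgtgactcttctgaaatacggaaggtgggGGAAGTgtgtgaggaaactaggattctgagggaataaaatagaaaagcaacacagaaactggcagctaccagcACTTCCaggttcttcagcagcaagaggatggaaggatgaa
Cd163 promoter: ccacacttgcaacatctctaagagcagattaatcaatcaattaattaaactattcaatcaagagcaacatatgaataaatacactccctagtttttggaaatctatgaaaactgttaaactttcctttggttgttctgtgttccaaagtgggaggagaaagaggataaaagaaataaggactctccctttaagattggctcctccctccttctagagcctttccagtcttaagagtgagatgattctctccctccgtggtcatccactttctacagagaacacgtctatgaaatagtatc
A second hexamer, GAGGAA (reverse complement TTCCTC), is part of sequences that PU.1 binds. It was found in the windows of Vsig4, Cd5l and Marco, and in 28.3% of all promoters. The hexamers share the letters GGAA and can overlap, which none of the matches here did. Both are short and common, and a match is a description of these letters alone.

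All 9 members are annotated as protein coding, with the same start and end in the table as in the GENCODE annotation. Clec4f (ENSMUSG00000014542) lies on chromosome 6 from 83644542 to 83656187 on the minus strand and Cd163 (ENSMUSG00000008845) on chromosome 6 from 124304656 to 124330527 on the plus strand. Timd4 (ENSMUSG00000055546) spans 46810800 to 46844332 of chromosome 11 on the plus strand, and Vsig4 (ENSMUSG00000044206) 96247203 to 96293438 of chromosome X on the minus strand. Cd5l (ENSMUSG00000015854) is on chromosome 3, 87357881 to 87371073, plus strand, and Marco (ENSMUSG00000026390) on chromosome 1, 120474538 to 120505024, minus strand. Adgre1 (ENSMUSG00000004730) is on chromosome 17, 57358691 to 57483527, plus strand, and Csf1r (ENSMUSG00000024621) on chromosome 18, 61100598 to 61132149, plus strand. Folr2 (ENSMUSG00000032725) is on chromosome 7, 101839988 to 101857194, minus strand. Other annotated genes overlap Folr2 (Gm10602 and Gm45319) and Csf1r (Hmgxb3 and Mir6983), and since the use of strand in counting is not given in the sources used here, the counts of these members are uncertain where the genes overlap. The other 7 members overlap no annotated gene.

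Per unit of gene length, Cd5l was the most abundant member and Folr2 or Cd163 the least. The unit here is FPKM, fragments scaled by gene length and by all counted fragments, which the authors deposited beside the counts. In hADMSCs-Exo the median FPKM fell in the order Cd5l (136), Clec4f (58.4), Marco (41.4), Vsig4 (33.4), Csf1r (17.6), Adgre1 (8.97), Timd4 (5.87), Cd163 (1.11) and Folr2 (0.825). In that order Clec4f overlapped Marco and Marco overlapped Vsig4 over the 3 libraries, and the other neighbours did not overlap. In REG the order was Cd5l (86.9), Clec4f (56.8), Vsig4 (27.8), Csf1r (12.9), Marco (10.2), Adgre1 (6.42), Timd4 (2.54), Folr2 (0.787) and Cd163 (0.501). In LFG it was Cd5l (201), Marco (80.3), Clec4f (48.3), Vsig4 (46.4), Csf1r (33.9), Adgre1 (18.5), Cd163 (3.43), Timd4 (3.23) and Folr2 (0.904). In LFG and in REG the ranges of all neighbours in the order overlapped, Adgre1 (4.51 to 12.9) and Timd4 (1.58 to 6.68) in REG among them. Below, levels are CPM, counts scaled to a common library total after TMM normalization, and are compared only between libraries.

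The 9 libraries held between 13837445 and 19840917 counts, and LFG 3 stood apart. It had the fewest counts and the fewest genes with a count, 13924 against 14539 to 15248 in the others. All 9 members were lowest in LFG 3 within LFG, as were 44.4% of the 12758 genes left by the low-count filter. For 5 members both other LFG libraries lay at least 9-fold above LFG 3, against 5.18% of all genes. Macrophage genes at large, a list of 14, summed to 154 CPM in LFG 3 against 1825 and 1338 in LFG 1 and LFG 2, and 7 genes of stellate cells and myofibroblasts to 54.3 against 1115 and 757. The sums of recruited macrophage and monocyte, lymphocyte, neutrophil, sinusoidal endothelial and cholangiocyte genes were also lowest in LFG 3. Comparisons of the members and lists with LFG are therefore given with LFG 3 and, for the called members and the counts, also without it. Bulk RNA gives a level per tissue, and fewer Kupffer cells cannot be told apart from less RNA of these genes per cell. The labels do not say that each library came from a separate mouse, so the p-values measure the spread between these libraries only.

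**Figure D1:**
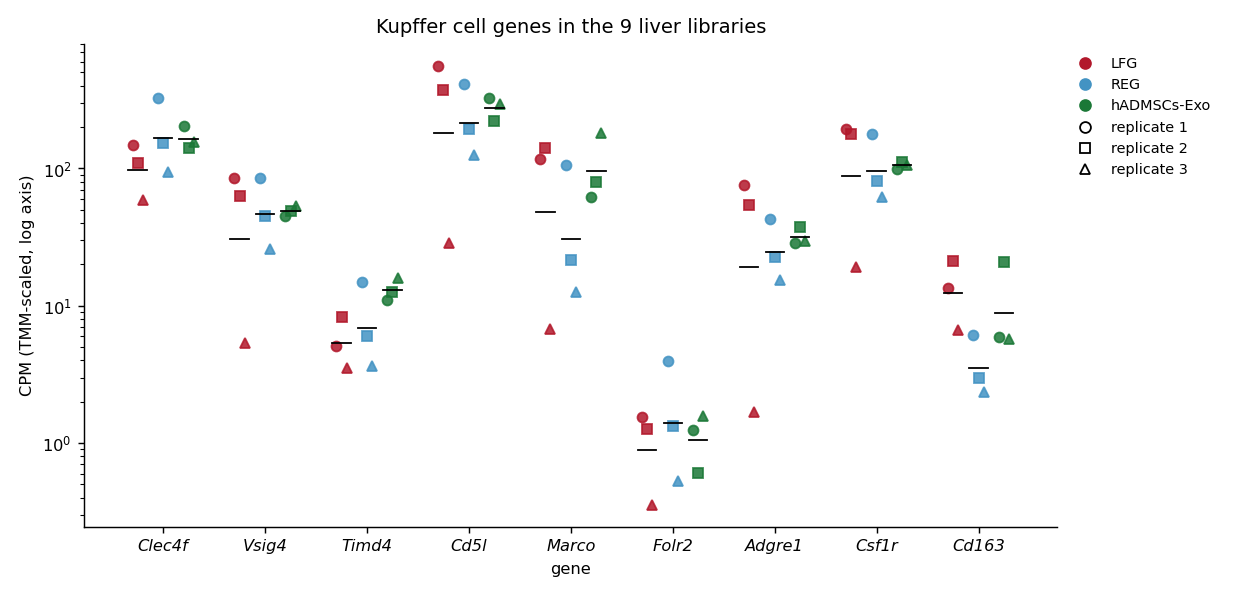
CPM of each member on a log axis in the 9 libraries. Colours stand for the groups, symbols for the replicate numbers, and black bars for the mean of log2 CPM of 3 libraries. LFG 3 is the lowest LFG library for every member, far below the others for Adgre1 (1.69 CPM) and closer for Clec4f (58.5 CPM). The hADMSCs-Exo libraries lie close together for Csf1r and Vsig4.

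The members fell unequally in LFG 3. Adgre1 was 44.9-fold and 32.4-fold lower there than in LFG 1 and LFG 2, on 19 counts. Marco was 17.0-fold and 20.6-fold lower, Cd5l 19.4-fold and 13.0-fold, Vsig4 16.1-fold and 11.8-fold, and Csf1r 10.2-fold and 9.33-fold. Much smaller ratios were found for Folr2 (4.38 and 3.59), Clec4f (2.53 and 1.86), Cd163 (2.04 and 3.17) and Timd4 (1.43 and 2.34). Folr2 had 4 counts in LFG 3, whereas Clec4f had 660, Cd163 75 and Timd4 40. Of the markers held to be specific to Kupffer cells, Clec4f and Timd4 thus stayed within 2.53-fold of the other LFG libraries while Vsig4 did not, and neither did Adgre1 and Csf1r, which other macrophages share.

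Clec4f, the lectin of Kupffer cells, had 148, 109 and 58.5 CPM in LFG 1, 2 and 3. It had 327, 153 and 93.9 CPM in REG, and 205, 141 and 155 in hADMSCs-Exo. REG 1 was the highest library and LFG 3 the lowest, and each pair of groups overlapped. The log2 fold change was 0.64 for hADMSCs-Exo against LFG (standard error 0.36, adjusted p = 0.825, quasi-likelihood test of edgeR, Benjamini-Hochberg method, as for each p marked edgeR). It was 0.87 for REG against LFG (standard error 0.53, adjusted p = 0.562, edgeR) and -0.21 for hADMSCs-Exo against REG (standard error 0.41, adjusted p = 0.883, edgeR). Leaving LFG 3 out gave 0.38 in hADMSCs-Exo and 0.61 in REG. Clec4f and Timd4 were the only members with a positive fold change in both groups both with and without LFG 3.

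Timd4, the phosphatidylserine receptor, had 5.09, 8.32 and 3.55 CPM in LFG. The values in REG were 14.9, 6.01 and 3.62 CPM, and those in hADMSCs-Exo 10.9, 12.7 and 16.0. Every hADMSCs-Exo library lay above every LFG library, while REG spanned from the LFG range up to the hADMSCs-Exo range. For hADMSCs-Exo against LFG this gave 1.19 on the log2 scale (standard error 0.36, unadjusted p = 0.0138, adjusted p = 0.805, edgeR). Without LFG 3 it was 0.99 (adjusted p = 0.0839, edgeR), again with no overlap. Against REG it was 0.68 (standard error 0.47, adjusted p = 0.641, edgeR), and the groups overlapped through REG 1.

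Vsig4, the complement receptor, had 85.7, 62.8 and 5.32 CPM in LFG. It had 84.7, 44.8 and 26.1 CPM in REG and 44.7, 49.1 and 53.7 in hADMSCs-Exo. The hADMSCs-Exo libraries were within 1.2-fold of each other and below both LFG 1 and LFG 2. With LFG 3 in the fit the log2 fold change against LFG was -0.09 (standard error 0.80, adjusted p = 0.991, edgeR), and without it -0.59 (standard error 0.19, adjusted p = 0.0996, edgeR). In REG against LFG it was 0.03 with LFG 3 and -0.48 without it (adjusted p = 0.994 and 0.439, edgeR). Its ligand gene C3 was abundant in every library, from 6232 CPM in LFG 3 to 18254 in hADMSCs-Exo 1.

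The scavenger receptor Marco had 116, 141 and 6.83 CPM in LFG. It had 106, 21.5 and 12.6 CPM in REG, and 62.1, 79.1 and 181 in hADMSCs-Exo. REG 2 and REG 3 were low and REG 1 was within the range of the hADMSCs-Exo libraries. The log2 fold change of hADMSCs-Exo against REG was 1.19 (standard error 0.76, adjusted p = 0.622, edgeR), and it was 2.67 without REG 1 and 0.59 without hADMSCs-Exo 3. The difference between hADMSCs-Exo and LFG was 0.25 with LFG 3 and -0.26 without it (adjusted p = 0.974 and 0.736, edgeR). Without LFG 3, every REG library lay below LFG 1 and LFG 2, by -1.43 on the log2 scale (standard error 0.76, adjusted p = 0.207, edgeR).

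Cd163, the haemoglobin scavenger receptor, had the lowest values in REG. It had 13.6, 21.1 and 6.65 CPM in LFG, then 6.10, 2.98 and 2.34 in REG, and 5.94, 20.7 and 5.69 in hADMSCs-Exo. Each REG library lay below each LFG library, LFG 3 included, though REG 1 and LFG 3 were close (6.10 and 6.65 CPM). hADMSCs-Exo 2 stood at the level of LFG 2, and the other hADMSCs-Exo libraries were near REG 1. The log2 fold change of REG against LFG was -1.85 (standard error 0.54, unadjusted p = 0.0111, adjusted p = 0.353, edgeR). It was -2.16 without LFG 3 (standard error 0.41, adjusted p = 0.0192, edgeR), and then passed the thresholds. DESeq2 (adjusted p = 0.0434) and limma with voom and quality weights (adjusted p = 0.0108) also called it with LFG 3 kept, while the fit with the replicate block (adjusted p = 0.459, edgeR) and the fit of all 9 libraries (adjusted p = 0.225, edgeR) did not. The lowest and the highest adjusted p of any alternative were 0.0108 and 0.928. In hADMSCs-Exo the level was above that of REG by 1.50 on the log2 scale (standard error 0.58, unadjusted p = 0.0319, adjusted p = 0.463, edgeR), and it fell to 0.61 without hADMSCs-Exo 2.

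Cd5l, the secreted apoptosis inhibitor, had 558, 373 and 28.8 CPM in LFG. It had 412, 192 and 126 CPM in REG, and 324, 223 and 296 in hADMSCs-Exo. LFG 1 was the highest library, and each pair of groups overlapped. Against LFG the log2 fold change was -0.22 in hADMSCs-Exo and -0.38 in REG with LFG 3, and -0.73 and -0.90 without it (adjusted p = 0.131 and 0.194, edgeR). Folr2, the folate receptor, had 1.56, 1.28 and 0.355 CPM in LFG, 3.94, 1.32 and 0.533 in REG, and 1.25, 0.603 and 1.58 in hADMSCs-Exo. It rested on 4 to 64 counts per library, and its groups overlapped in every comparison.

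Adgre1, the gene of F4/80, had 75.7, 54.6 and 1.69 CPM in LFG. It had 43.0, 22.6 and 15.5 CPM in REG and 28.4, 37.4 and 29.5 in hADMSCs-Exo. Apart from LFG 3, every LFG library lay above every library of the other groups. In hADMSCs-Exo against LFG it changed by -0.50 (standard error 0.99, adjusted p = 0.958, edgeR) with LFG 3. Without LFG 3 it was -1.04 (standard error 0.21, adjusted p = 0.0346, edgeR), which passed the thresholds. For REG against LFG it was -0.69 (standard error 1.04, adjusted p = 0.815, edgeR) and, without LFG 3, -1.24 (standard error 0.39, adjusted p = 0.0628, edgeR).

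Csf1r, the growth factor receptor, had 195, 179 and 19.2 CPM in LFG. It had 179, 80.8 and 61.8 CPM in REG and 99.5, 111 and 106 in hADMSCs-Exo. The hADMSCs-Exo libraries were within 1.12-fold of each other, and REG 1 was level with LFG 2. Against LFG it differed in hADMSCs-Exo by -0.34 (standard error 0.72, adjusted p = 0.960, edgeR), and without LFG 3 it was -0.82 (standard error 0.17, adjusted p = 0.0354, edgeR), short of the limit of 1 on the fold change. In REG it was -0.28 with LFG 3 and -0.77 without it (adjusted p = 0.916 and 0.210, edgeR). Its ligand gene Csf1 had 21.7, 17.3 and 7.54 CPM in LFG, 25.1, 13.7 and 15.0 in REG, and 45.4, 22.1 and 19.0 in hADMSCs-Exo, with overlapping groups. Il34, the other ligand gene, had at most 2.33 CPM in any library.

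Between hADMSCs-Exo and REG, which differ in the exosomes alone, 0 of the 9 members were called, beside 0.00811% of the 12337 genes tested (1 gene). The call asked for an adjusted p under 0.05 together with a log2 fold change of 1 or more in either direction. An unadjusted p under 0.05 was reached by 1 member (Cd163), beside 10.0% of all genes tested, and 0 members had groups without overlap, beside 15.5%. The members' fold changes had a median of 0.20 on the log2 scale, beside 0.008 for all genes, with 5 members higher and 4 lower. All 9 members were highest in REG 1 and lowest in REG 3 among the REG libraries, an order that 20.4% of all genes had. REG 1 lay 2.60-fold (Cd163) to 8.40-fold (Marco) above REG 3. Macrophage genes at large summed to 1364, 799 and 560 CPM in REG 1, 2 and 3, neutrophil genes to 42.2, 13.2 and 7.83, and sinusoidal endothelial genes to 271, 140 and 102.5. The part of these lists in the spread of the members was not tested. Since REG 1 is the highest and REG 3 the lowest, leaving out either shifts all members one way. Without REG 1 all 9 were higher in hADMSCs-Exo, by 0.32 (Folr2) to 2.67 (Marco) on the log2 scale (median 0.75, beside 0.02 for all genes, 52.3% of which were higher). Without REG 3, 3 were higher and 6 lower, with Folr2 at -1.21, Clec4f at -0.54 and Vsig4 at -0.41 (median -0.12, beside 0.01 for all genes, 51.2% of which were higher). In either case 0 members and 1 of all genes were called.

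By CPM, most members varied less between the hADMSCs-Exo libraries than within the other groups. The SD of log2 CPM was smaller in hADMSCs-Exo than in REG for 8 of 9 members, beside 46.6% of all genes, and smaller than in LFG for 8 of 9, beside 74.9%. Cd163 was the exception in both. Its SD was 1.05 in hADMSCs-Exo, 0.70 in REG and 0.83 in LFG (n = 3 each). That of Csf1r was 0.08, 0.80 and 1.89, and that of Vsig4 0.13, 0.85 and 2.18. These SDs are descriptions of 3 libraries each and were not tested. Macrophage genes at large were likewise even in hADMSCs-Exo, with sums of 919, 894 and 994 CPM beside 1364, 799 and 560 CPM in REG, and the summed C1q genes spanned 1.16-fold there and 2.69-fold in REG, so the evenness was not particular to the members. Over all genes the chi-square per gene was 54.2 to 93.5 between hADMSCs-Exo libraries, 28.6 to 59.3 between REG libraries and 76.2 to 315 between LFG libraries.

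Between hADMSCs-Exo and LFG, which differ in the exosomes, the injections of PBS that carried them and 4 weeks of time, 0 of 9 members were called, beside 0% of 12489 genes. An unadjusted p under 0.05 was found for 1 member (Timd4), beside 5.98% of all genes, and groups without overlap for the same 1, beside 12.3%. The median log2 fold change of the members was -0.09, beside -0.06 for all genes, with 4 higher and 5 lower. With the replicate number as a block, the median was 0.38 and the fold changes of Vsig4 (0.45), Cd5l (0.38), Adgre1 (0.27) and Csf1r (0.14) turned positive, with 0 members called. Deviations of same-numbered libraries of these groups correlated only weakly (0.101, 0.308 and 0.179), and no label says that they are pairs. Without LFG 3, 1 member was called (Adgre1, lower), beside 5.97% of all genes. Then 7 members were lower and 2 higher (Clec4f and Timd4), with a median of -0.59, beside 0.004 for all genes. Groups without overlap were then found for 5 members (Vsig4, Cd5l, Adgre1 and Csf1r lower, Timd4 higher), beside 48.0% of all genes.

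Between REG and LFG, which differ in time and PBS injections, 0 of 9 members were called, beside 0% of 12517 genes. An unadjusted p under 0.05 was found for 1 member (Cd163, lower), beside 11.3% of all genes, and groups without overlap for the same 1, beside 18.9%. The median log2 fold change was -0.28, beside -0.07 for all genes, with 4 members higher and 5 lower. Without LFG 3, 1 member was called (Cd163, lower), beside 10.7% of all genes, and 6 members were lower and 3 higher (Clec4f, Timd4 and Folr2), with a median of -0.77, beside -0.005 for all genes. Groups without overlap were then found for 3 members (Marco, Adgre1 and Cd163, all lower), beside 55.0% of all genes. With LFG 3 kept, DESeq2 called 1 member (Cd163), beside 1.91% of all genes, and limma with voom and quality weights called 1 (Cd163), beside 10.3%. Both comparisons with LFG use the same LFG libraries, so that likeness between them is not a result.

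**Figure D2:**
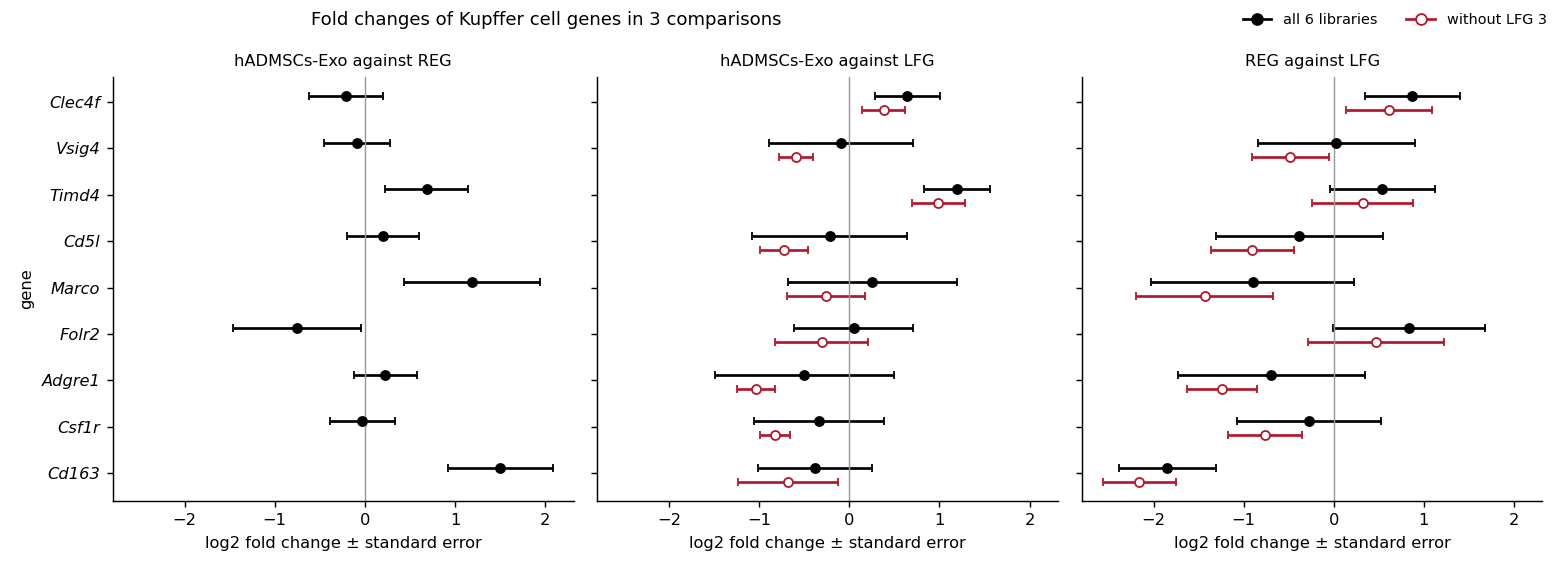
Log2 fold change of each member with its standard error in the 3 comparisons, from edgeR. Filled points use all 6 libraries and open red points leave out LFG 3. Without LFG 3 the error bars are shorter in both comparisons with LFG, and Adgre1 lies at -1.04 in hADMSCs-Exo and Cd163 at -2.16 in REG. Clec4f and Timd4 lie to the right of 0 in both comparisons with LFG.

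The members were also set against other macrophage genes in the same library, which takes out a common rise or fall of macrophage RNA. Per Adgre1 count, Clec4f had 1.96 and 1.99 counts in LFG 1 and LFG 2, 7.61, 6.75 and 6.08 in REG, and 7.22, 3.77 and 5.26 in hADMSCs-Exo. In LFG 3 the ratio was 34.7, on the 19 Adgre1 counts of that library. Against LFG 1 and LFG 2, 6 of the other 8 members were higher per Adgre1 count in every REG library, beside 63.9% of all genes, and Cd163 was lower in every one, beside 1.56%. In hADMSCs-Exo 3 of 8 (Clec4f, Vsig4 and Timd4) were higher in every library, beside 73.8%, and 0 were lower, beside 3.73%. Adgre1 itself was lower in both groups, so these shares say nothing particular to the members. Compared with REG, 1 of 8 members (Cd163) in hADMSCs-Exo was higher per Adgre1 count in every library, beside 0.643% of all genes, and 0 were lower, beside 4.69%. Adgre1 itself spanned 2.78-fold in REG, and a gene that does not follow it is spread by the division. Those shares are therefore no baseline for macrophage genes. Cd163 had 0.209, 0.554 and 0.193 counts per Adgre1 count in hADMSCs-Exo and 0.142, 0.132 and 0.152 in REG.

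A second denominator, the sum of C1qa, C1qb and C1qc, was added after the data had been seen. These genes encode the chains of complement C1q, which Kupffer cells and other macrophages make. The spread between the highest and the lowest REG library became narrower per C1q count for 9 of 9 members, beside 14.1% of all genes. All 9 members and the C1q genes were highest in REG 1 and lowest in REG 3 of REG, so this narrowing is a description only. The shares of all genes in this paragraph are no baseline for macrophage genes, since a gene that does not follow the C1q sum is spread by the division. For Adgre1 it was 1.04-fold in place of 2.78-fold, for Cd163 1.13-fold in place of 2.60-fold, and for Csf1r 1.18-fold in place of 2.90-fold. Marco (3.14-fold) and Folr2 (2.76-fold) kept the widest spread. In LFG it became narrower for 6 of 9 members, beside 15.1%, Csf1r having 1.3-fold in place of 10.2-fold, and wider for Clec4f (4.04-fold), Timd4 (7.14-fold) and Cd163 (5.02-fold). In hADMSCs-Exo it became narrower for 5 of 9, beside 41.6%, and wider for Vsig4, Adgre1 (1.47-fold in place of 1.32-fold), Csf1r (1.23-fold in place of 1.12-fold) and Cd163 (4.22-fold in place of 3.64-fold).

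Per C1q count, Clec4f had 0.230 and 0.239 in LFG 1 and LFG 2 and 0.930 in LFG 3. It had 0.538, 0.471 and 0.415 in REG, and 0.572, 0.433 and 0.411 in hADMSCs-Exo. Clec4f was thus higher in all 6 later libraries than in LFG 1 and LFG 2 and highest in LFG 3. It was the one member of 9 higher in every REG library than in LFG 1 and LFG 2, beside 20.6% of all genes, and 5 members (Cd5l, Marco, Adgre1, Csf1r and Cd163) were lower in every REG library, beside 6.63%. Clec4f and Timd4 were those higher in every hADMSCs-Exo library, beside 54.5%, and Adgre1 was lower, beside 6.79%. Timd4 had 0.00789, 0.0183 and 0.0563 per C1q count in LFG, 0.0245, 0.0185 and 0.0160 in REG, and 0.0305, 0.0389 and 0.0424 in hADMSCs-Exo.

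In hADMSCs-Exo, 4 of 9 members (Timd4, Cd5l, Adgre1 and Cd163) were higher per C1q count in every library than in REG, beside 2.56% of all genes, and 0 were lower, beside 1.33%. These shares are no baseline for macrophage genes, since the C1q sum itself spanned 2.69-fold in REG and a gene that does not follow it is spread by the division. The 4 are thus a description only. Cd5l had 0.904, 0.686 and 0.785 per C1q count in hADMSCs-Exo and 0.677, 0.594 and 0.555 in REG, where the lowest and the highest of the groups nearly met. Adgre1 had 0.0792, 0.115 and 0.0780 against 0.0707, 0.0698 and 0.0683. Cd163 had 0.0166, 0.0637 and 0.0151 against 0.0100, 0.00919 and 0.0104. Per Adgre1 count only Cd163 of these was higher in every library, so the count of 4 depends on the denominator. Vsig4 per C1q count was between 0.115 and 0.151 in all libraries but LFG 3 (0.0845), the most even of the members outside LFG 3.

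**Figure D3:**
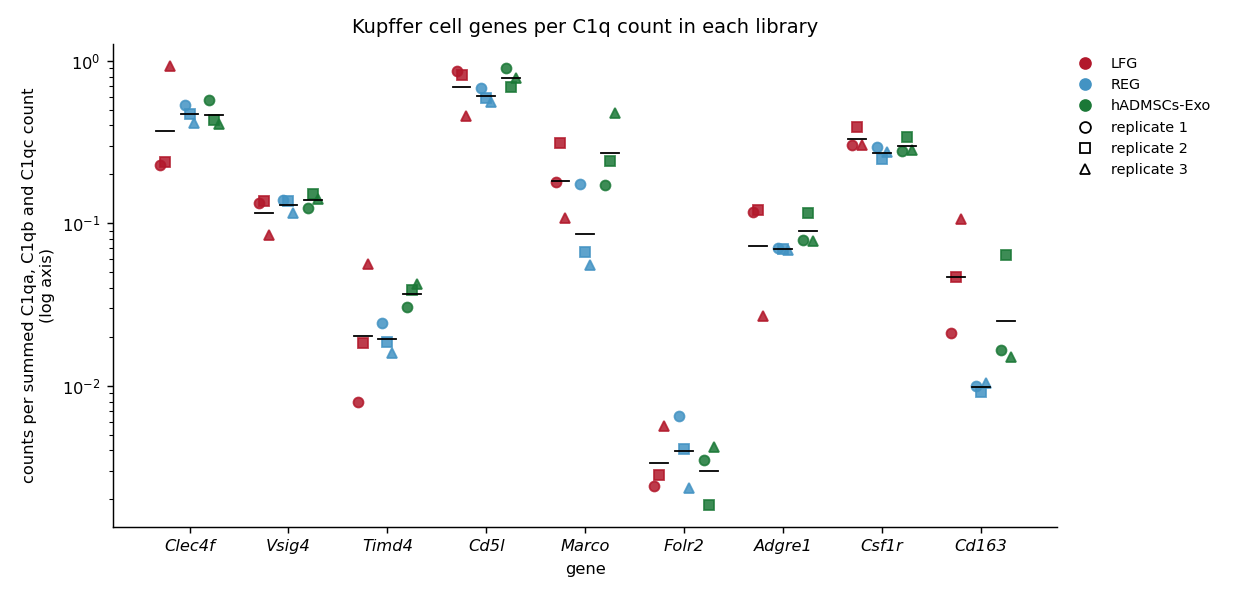
Counts of each member per summed count of C1qa, C1qb and C1qc in each library, on a log axis. Colours stand for groups, symbols for replicate numbers, and black bars for the mean of the log2 ratio. LFG 3 is the highest library for Clec4f (0.930) and Cd163 (0.106) and the lowest for Adgre1 (0.0268). The REG libraries of Adgre1 lie between 0.0683 and 0.0707.

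Across the 9 libraries the members moved together to different degrees. Pearson's r of log2 CPM over the 36 pairs of members had a median of 0.73, from -0.01 (Clec4f and Cd163) to 0.98 (Adgre1 and Csf1r). Without LFG 3 the median was 0.63, from -0.06 to 0.96 for the same pairs. The 9 points share their group and the make-up of their tissue, and r is given as a description. Among the 12749 other genes, those most like Clec4f were Igsf8 (r = 0.966), Ccl7 (0.952), Chpf2 (0.947), Cep89 (0.943) and Slc6a6 (0.936). Those most like the mean of the 9 members were Cfp (0.983), the gene of properdin, Cd300e (0.981), Hcls1 (0.981) and Agtrap (0.979), over the same 9 libraries.

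Of 11 other genes linked to Kupffer cells, 0 were called in any of the 3 comparisons with all libraries. Between hADMSCs-Exo and REG, 8 were higher and 3 lower, with a median log2 fold change of 0.38, beside 0.008 for all genes. An unadjusted p under 0.05 was found for 2 of the 11, beside 10.0% of all genes. They were Cxcl13 (2.45, standard error 0.72, adjusted p = 0.407, edgeR), a chemokine gene for B cells, and the potassium channel gene Kcna2 (0.92, standard error 0.26, adjusted p = 0.407, edgeR). Cxcl13 had 9.21, 39.5 and 43.3 CPM in hADMSCs-Exo, 10.7, 4.47 and 1.71 in REG, and 1.22, 12.4 and 0.621 in LFG. Kcna2 had 7.97, 8.68 and 10.6 CPM in hADMSCs-Exo, above every library of REG (6.16, 4.63 and 3.57) and LFG (4.46, 2.11 and 0.976). Against LFG, 8 were higher and 3 lower in hADMSCs-Exo (median 0.36, beside -0.06) and 7 were higher and 4 lower in REG (median 0.07, beside -0.07). Without LFG 3 the counts were 7 and 4 in hADMSCs-Exo (median 0.31, beside 0.004), but turned to 4 higher and 7 lower in REG (median -0.19, beside -0.005). The lectin gene Clec1b had 30.9, 17.2 and 4.79 CPM in LFG, and the ficolin gene Fcna had 9.75, 10.5 and 8.43. Spic (0.798 CPM in LFG 3 against 8.49 and 6.71), Il18bp (9.40 against 61.8 and 44.1) and Hmox1 (9.14 against 79.1 and 67.5) were also far lower in LFG 3, whereas C6 had 380 CPM there against 71.1 and 123.9. Without LFG 3, C6, a complement gene that hepatocytes also express, was called higher in hADMSCs-Exo (1.35, adjusted p = 0.0392, edgeR), and Hmox1, the haem oxygenase, lower in REG (-1.34, adjusted p = 0.0475, edgeR). These were 1 of the 11 genes in each comparison, beside 5.97% and 10.7% of all genes.

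Of the 14 macrophage genes at large, 0 were called with all libraries in any comparison. In hADMSCs-Exo against REG, 8 were higher and 6 lower (median 0.06, beside 0.008), and Cd14 had the largest change (0.87, standard error 0.24, adjusted p = 0.402, edgeR). Without LFG 3 all 14 were lower against LFG in both groups, with a median of -0.78 in hADMSCs-Exo, where 2 were called (Ctss and Laptm5), and of -0.75 in REG, where 0 were called. At an unadjusted p under 0.05 these counts were 9 and 7 of 14, beside 28.5% and 37.3% of all genes, and the calls stood beside 5.97% and 10.7%.

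Of 11 genes of recruited macrophages and monocytes, 0 were called against LFG with all libraries. In hADMSCs-Exo 8 had a lower value and 3 a higher one (Ly6c2, Cd9 and Fabp5, median of the 11 -0.72), and in REG 10 a lower value and 1 (Fabp5) a higher one (median -1.18). Fabp5, a fatty acid binding protein gene, differed by 1.61 in hADMSCs-Exo and 1.34 in REG (adjusted p = 0.824 and 0.335, edgeR). In hADMSCs-Exo this rested on 1 library, with 497 CPM in hADMSCs-Exo 1 but 52.4 and 59.5 in the others, within the 46.9 to 92.6 of LFG. Without LFG 3 the medians were -1.14 and -1.72, and 3 were called lower in hADMSCs-Exo (Trem2, Gpnmb and Cx3cr1) and 8 in REG, beside 5.97% and 10.7% of all genes. Gpnmb, a gene of lipid-laden and scar macrophages, had 184.5, 53.7 and 0 CPM in LFG, 17.3, 16.9 and 15.9 in REG, and 11.2, 17.1 and 22.6 in hADMSCs-Exo. Its log2 fold change without LFG 3 was -2.81 in hADMSCs-Exo and -2.80 in REG (adjusted p = 0.0278 and 0.0154, edgeR). Trem2, which marks the same cells, had 40.3, 20.1 and 0.0887 CPM in LFG, the last on 1 count, and at most 7.15 in the other groups. In LFG 3, Gpnmb had 0 counts, Trem2 and Cx3cr1 had 1 each, Ly6c2 had 2, Ccr2 3, Itgax 4 and Itgam 8. Others of the list had more there, with 51 for Lgals3, 168 for Cd9, 460 for Spp1 and 529 for Fabp5, beside 660 for Clec4f. Between hADMSCs-Exo and REG, 9 of the 11 were higher and 2 lower (median 0.39), with 0 called.

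Signals and transcription factors of the Kupffer niche, 14 in number, showed 0 calls with all libraries. Between hADMSCs-Exo and REG, 8 were higher and 6 lower (median 0.09). Against LFG, 9 were higher and 5 lower in hADMSCs-Exo (median 0.13), and 5 higher and 9 lower in REG (median -0.19). Without LFG 3 this turned to 5 higher and 9 lower in hADMSCs-Exo (median -0.20) and became 3 higher and 11 lower in REG (median -0.57). Without LFG 3, 1 of the 14 was called against the same pair of LFG libraries in each group, beside 5.97% and 10.7% of all genes. It was Zeb2, a factor needed for Kupffer identity, which was lower (-1.18 in hADMSCs-Exo and -1.26 in REG, adjusted p = 0.0296 and 0.0246, edgeR). Of 7 ligands and partners of the members, 6 were higher and 1 (Il34) lower in hADMSCs-Exo than in REG (median 0.28), and 0 were called in any comparison. Among them Hp, the haptoglobin gene whose product CD163 takes up with haemoglobin, had 4422.5, 6170 and 11777 CPM in hADMSCs-Exo and 4692 to 5229 in REG. Hpx, which binds free haem, and Gas6, which bridges dying cells to phagocytes, likewise overlapped between these groups.

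Genes of other cell types also differed between the libraries. Summed over 7 genes of stellate cells and myofibroblasts, the level was 1115, 757 and 54.3 CPM in LFG, 182 to 318 in REG and 74.0 to 196 in hADMSCs-Exo, and all 7 genes were lower in hADMSCs-Exo than in REG (median -1.09, beside 0.008 for all genes, 0 called, 5 at an unadjusted p under 0.05, beside 10.0% of all genes). Summed over 8 lymphocyte genes it was 11.0, 17.1 and 3.81 CPM in LFG, 11.2 to 20.7 in REG and 21.1 to 25.0 in hADMSCs-Exo, and all 8 were higher in hADMSCs-Exo than in LFG (median 1.05, beside -0.06 for all genes, 0 called, 2 at an unadjusted p under 0.05, beside 5.98% of all genes). Without LFG 3 all 8 were still higher (median 0.80, beside 0.004 for all genes, 0 called). In REG against LFG all 8 were higher too (median 0.70, 0 called), and without LFG 3, 6 were higher and 2 lower (median 0.39). Of 6 neutrophil genes, 5 were tested between hADMSCs-Exo and LFG and all 5 were higher (median 1.57, 0 called, 3 at an unadjusted p under 0.05, beside the same share), with sums of 7.45 to 13.9 CPM in LFG and 24.0 to 42.3 in hADMSCs-Exo. Without LFG 3, 4 were higher and 1 lower (median 1.59), and S100a8 and S100a9 were called, beside 5.97% of all genes. In REG against LFG all 4 tested neutrophil genes were higher (median 0.98, 0 called), with sums of 7.83 to 42.2 CPM in REG. Without LFG 3, 3 were higher and 2 lower in REG (median 0.835). The sum of 6 sinusoidal endothelial genes was 62.7, 196 and 68.1 CPM in hADMSCs-Exo and 102.5 to 271 in REG, and all 6 were lower in hADMSCs-Exo (median -0.68, 0 called). In LFG that sum was 115, 149 and 54.8 CPM. The sum of 4 cholangiocyte genes was 8.78 CPM in LFG 3 and 19.8 and 22.7 in the other LFG libraries, and 13.5, 15.1 and 16.4 in REG 1, 2 and 3. In REG, Sox9 (6.10, 8.49 and 11.3 CPM) ran against the order of the members. Krt19 (2.77, 2.21 and 1.44) and Epcam (3.82, 3.64 and 2.45) ran with it, and Krt7 had 0.80, 0.77 and 1.23. Hepatocyte genes, 6 in number, summed to 83795 CPM in LFG 1, 133371 in LFG 2 and 150109 in LFG 3, so that LFG 3 was not low in them. Their sums were 164113 to 172376 in REG and 118836 to 134644 in hADMSCs-Exo. Against REG, 5 of the 6 were lower in hADMSCs-Exo and 1 higher (median -0.18, 0 called). Groups did not overlap for 4 of the 6 (3 lower and 1 higher), beside 15.5% of all genes. The part of these lists in the levels of the members was not tested.

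**Figure D4:**
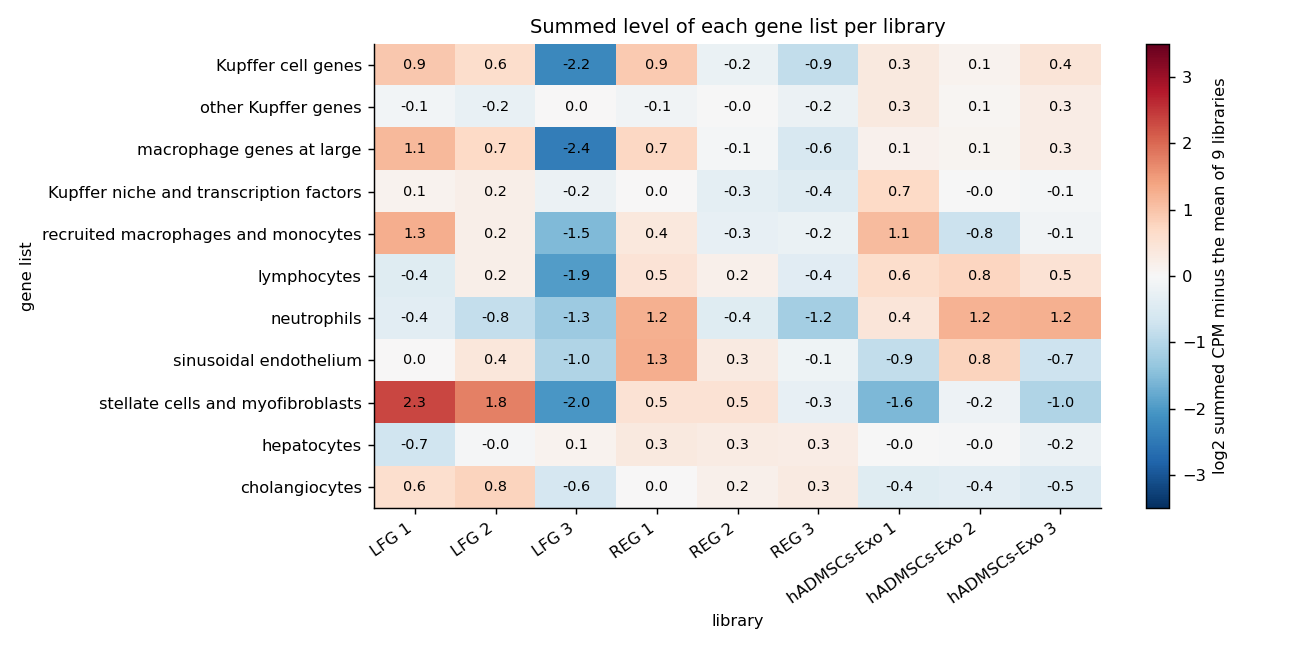
Summed CPM of the members and of 10 other gene lists in each library, as log2 differences from the mean of the 9 libraries (colour and printed value). LFG 3 is the lowest library for the members (130.9 CPM summed), for macrophage genes at large (154) and for stellate cells and myofibroblasts (54.3). It is also the lowest for recruited macrophages and monocytes (108.8), lymphocytes (3.81), neutrophils (7.45), sinusoidal endothelium (54.8) and cholangiocytes (8.78). It is not the lowest for hepatocytes, other Kupffer genes, or the Kupffer niche and transcription factors. Of the 619 CPM of other Kupffer genes in LFG 3, 380 were C6, which hepatocytes also express. LFG 1 is the highest for macrophage genes at large (1825).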

How the data were processed

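Liver RNA of 9 libraries was analysed, 3 each of LFG, REG and hADMSCs-Exo, of 12 samples in the series. The other 3 were not analysed here. Libraries were sequenced on an Illumina NovaSeq after Trizol extraction. The submitters' processing notes name cutadapt 1.15, HISAT2 2.0.5, HTSeq 0.9.1, DESeq 1.30.0 and GRCm38. The authors deposited raw counts per gene without normalization. They also deposited FPKM. Dividing counts by gene length and by the library's total gave the same FPKM within a relative difference of 9.19e-07.

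Differences in counts over the table of 21936 genes were tested by edgeR 4.0.16 under R 4.3.3 (quasi-likelihood test, two-sided, TMM, edgeR's filter on low counts, Benjamini-Hochberg adjustment over all genes tested), with the 6 libraries of a comparison in each fit. The test was first checked on simulated counts. CPM was scaled by TMM, and log2 CPM used a prior count of 2. Standard errors were taken as the log2 fold change over the root of F. DESeq2 1.42.0 and limma 3.58.1 were alternatives, beside other filters, scalings, a block and each library left out. Tables were made with Python 3.11.15 and pandas 2.3.3, and plots with matplotlib 3.10.9.

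The members, lists and tests were chosen with earlier results of these data known. As a rule, named are all 9 members and the 5 genes most like Clec4f or the members' mean. From a list, up to 4 genes are named (the largest changes at a mean log2 CPM above 0, or a ligand, receptor or defining marker). More than 4 are named from the lists of other Kupffer genes, macrophage genes at large, ligands and partners, and recruited macrophages and monocytes. Genes beyond this rule are defining markers (Clec1b, Fcna, Cxcl13 in LFG), part of a denominator, or given for a call, sign or level. Some genes under this rule are not reported here.

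Replicates differed by more than sampling noise (chi-square per gene 28.6 to 315). Groups share replicate numbers. Deviations of same-numbered libraries from their group means correlated by 0.101, 0.308 and 0.179 for hADMSCs-Exo and LFG, all over 0.1, by 0.157, 0.00639 and 0.0374 for hADMSCs-Exo and REG, and by 0.414, -0.20 and 0.306 for REG and LFG. The first, weak as it is, is the only ground for taking numbers as pairs, and no label gives a pairing.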

Additional observations from a re-analysis of the deposited data

How the results depend on the processing

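Of 349 values of members' fold changes under alternatives, 302 kept their direction and side of the threshold, 4 came to pass it and 43 changed sign, 26 of these on leaving out a library. Leaving out LFG 3 moved the counts of called members from 0 to 1 (Adgre1 in hADMSCs-Exo, Cd163 in REG) and of all genes from 0 to 773 and 1391, so with each library left out these ran from 0 to 1, from 0 to 773 and from 0 to 1391. For hADMSCs-Exo against REG, 1 gene was called, and 0 without REG 2 or hADMSCs-Exo 3 (range 0 to 1). At an unadjusted p with the fold limit, 1 member passed in each comparison and 266, 374 and 537 genes (order: hADMSCs-Exo against REG, hADMSCs-Exo against LFG, REG against LFG). DESeq2 called 67, 60 and 239 genes and limma with voom 3, 1 and 1285, and both called 1 member in REG against LFG. No filter on low counts gave 4 genes for hADMSCs-Exo against REG, and all 9 libraries in one fit gave 0 there and 1 for hADMSCs-Exo against LFG.

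With the replicate block, 0 members were called in each comparison and no call changed. For hADMSCs-Exo against LFG, the block moved the median of the members from -0.09 to 0.38. The sign changed for Vsig4 (0.45), Cd5l (0.38), Adgre1 (0.27) and Csf1r (0.14). No label says that same-numbered libraries are pairs, and their deviations correlated only weakly. The block also turned Vsig4 (0.079) and Csf1r (0.14) against REG, and Cd5l (0.18), Adgre1 (0.056) and Csf1r (0.11) in REG against LFG. Limma with voom turned Clec4f (0.028), Vsig4 (0.16) and Csf1r (0.26) for hADMSCs-Exo against REG, Marco (-0.15) and Folr2 (-0.25) for hADMSCs-Exo against LFG, and Vsig4 (-0.40) and Timd4 (-0.17) for REG against LFG. At least 10 counts in every library turned Vsig4 in REG against LFG (-0.009). The cause was not tested.

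With each library left out in turn, fold changes that changed sign ran as follows. For hADMSCs-Exo against REG they ran from -0.54 to 0.45 (Clec4f), -0.41 to 0.49 (Vsig4), -0.12 to 0.84 (Cd5l), -1.21 to 0.32 (Folr2), -0.058 to 0.75 (Adgre1) and -0.31 to 0.58 (Csf1r). For hADMSCs-Exo against LFG they ran from -0.59 to 0.50 (Vsig4), -0.73 to 0.46 (Cd5l), -0.33 to 0.77 (Marco), -0.31 to 0.43 (Folr2), -1.04 to 0.15 (Adgre1), -0.82 to 0.073 (Csf1r) and -1.26 to 0.067 (Cd163). For REG against LFG they ran from -0.50 to 0.62 (Vsig4), -0.20 to 0.92 (Timd4), -0.98 to 0.29 (Cd5l), -0.19 to 1.31 (Folr2) and -0.84 to 0.13 (Csf1r). Folr2 rested on few counts (4 to 64), as did Adgre1 in LFG 3 (19 counts). The part of depth and of the spread between libraries in the precision was not tested.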
